A study of Mus musculus with 4 samples.

Results

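The 10 genes described here, Peg3, Peg10, Sgce, Mest, Plagl1, Ndn, Nnat, Grb10, Cdkn1c and Zim1, are imprinted genes of fetal growth, chosen by name from the 24063 gene symbols of the deposited tables. All 10 have a row, and where a gene has several transcript rows, the one with most counts on average stands for it. The series holds 4 poly-A RNA libraries of mouse liver tumours in C57BL/6 animals (C57BL6/J in the titles), with the replicate numbers 1, 5, 9 and 10 and the genotype label MYC;PMEPA1. MYC and PMEPA1 were introduced by hydrodynamic delivery through the tail vein, which carries DNA mainly into hepatocytes, and the labels state that the tumours received no treatment. The labels also give 8 to 10 passages but neither the age of the animals, nor the species of the delivered sequences, nor whether the tumours came from separate animals. The 4 libraries form 1 group with no control, so no comparison between conditions was possible and a spread between tumours may be technical.

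An imprinted gene is expressed mainly from the maternal or the paternal copy, a choice set by DNA methylation marks placed in the germ line. Many such genes act on growth before birth and are turned down together in the organs of young animals, the liver among them. In these tissues Peg3, Peg10, Sgce, Mest, Plagl1, Ndn and Nnat are known as paternally expressed, and Cdkn1c, Zim1 and, outside the brain, Grb10 as maternally expressed. The libraries measure the total RNA of a gene and not the allele it came from, so imprinting itself was not measured.

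The libraries hold 41547956 to 51939610 counts over all genes. Values are counts per 1000000 (CPM) with library sizes scaled by TMM, a method that aligns the bulk of genes between libraries. Expressed genes are those whose 4 tumours averaged 1 CPM or more, which were 13129. At these depths 3 counts, the one-sided 95% limit that a count of 0 allows, correspond to 0.0524 to 0.0892 CPM, a floor that covers counting error only. Mouse Myc had 4.86 to 8.58 CPM and Pmepa1 0.922 to 7.28 CPM. The tumours carried hepatocyte RNA, with the 10 hepatocyte markers summing to 15996, 17769, 21753 and 38375 CPM in tumours 1, 5, 9 and 10.

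Peg3, Peg10, Sgce and Grb10 had far less RNA in tumour 10 than in the other 3 tumours, while Plagl1, Ndn and Zim1 stayed under 1 CPM in all 4. Of the 10 members, 7 were expressed, and 6 of these 7 were lowest in tumour 10, as were 32.4% of all expressed genes. In 4 of the 7, Peg3, Peg10, Sgce and Grb10, tumour 10 lay at least 4-fold below the lowest of the other tumours, against 2.44% of all expressed genes, and in 3, Peg10, Sgce and Peg3, at least 10-fold below, against 0.884%. The highest tumour was tumour 1 for 4 members (21.4% of all expressed genes), tumour 5 for 1 (21.2%), tumour 9 for 2 (21.6%) and tumour 10 for 0 (35.8%). The lowest was tumour 1 for 1 member (21.8%) and tumours 5 and 9 for 0 (20.3% and 25.5%), and 4 members were both highest in tumour 1 and lowest in tumour 10 (12.8%). Nnat was the exception, within 1.36-fold over the 4 tumours, and was lowest in tumour 1 with TMM but in tumour 10 when scaled by total counts alone. The members' log2 CPM, centred on each gene's mean, had medians of 0.72, 1.48, 0.24 and -3.15 in tumours 1, 5, 9 and 10, where all expressed genes had medians of -0.01, 0.00, -0.04 and 0.02. In bulk tumours, fewer cells that express a gene and less of its RNA per cell cannot be told apart.

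**Figure D1:**
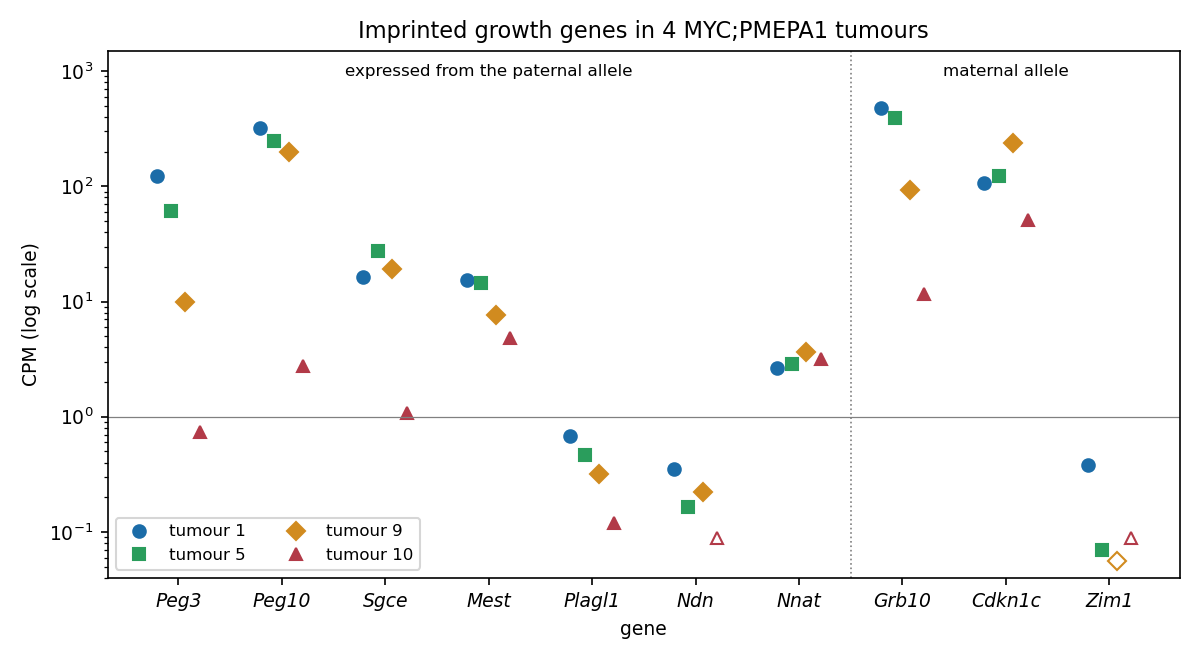
CPM on a log axis for the 10 imprinted genes, 1 point per tumour; open points mark libraries with no count, drawn at the floor of 3 counts, and the grey line marks 1 CPM. The split into paternal and maternal alleles is background knowledge, not a measurement. Tumour 10 is the lowest point of Peg3 (0.743 CPM), Peg10 (2.77 CPM), Sgce (1.07 CPM), Mest (4.82 CPM), Plagl1 (0.119 CPM), Grb10 (11.6 CPM) and Cdkn1c (50.5 CPM), while the 4 points of Nnat lie between 2.67 and 3.65 CPM.

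Promoter sequences are shown for 4 members that span these patterns. Peg3 had the widest range of the expressed members, and Plagl1 had a low level in every tumour. Ndn had no count in tumour 10, and Nnat had the steadiest level. RefSeq (GRCm38.p6) gives windows from 250 bases before to 50 after the start for 7 of the 10 members, 10 windows in all. The following 4 motifs were searched on both strands: CACGTG, the E-box bound by MYC; GGGGCCCC, a GC-rich element like those PLAGL1 binds; TGACGTCA, the cyclic AMP response element; and GCATGCGC, the core of the NRF1 site. Capitals mark a match. The windows are chr7:6730370-6730669 on the minus strand for Peg3, chr10:13090582-13090881 on the plus strand for Plagl1, chr7:62348027-62348326 on the plus strand for Ndn and chr2:157559828-157560127 on the plus strand for Nnat.
Peg3: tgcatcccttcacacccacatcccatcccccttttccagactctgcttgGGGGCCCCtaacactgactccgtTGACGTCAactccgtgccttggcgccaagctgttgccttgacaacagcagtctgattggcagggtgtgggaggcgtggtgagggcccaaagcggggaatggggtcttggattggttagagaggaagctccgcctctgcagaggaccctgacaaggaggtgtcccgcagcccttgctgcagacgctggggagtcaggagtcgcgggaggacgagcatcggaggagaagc
Plagl1: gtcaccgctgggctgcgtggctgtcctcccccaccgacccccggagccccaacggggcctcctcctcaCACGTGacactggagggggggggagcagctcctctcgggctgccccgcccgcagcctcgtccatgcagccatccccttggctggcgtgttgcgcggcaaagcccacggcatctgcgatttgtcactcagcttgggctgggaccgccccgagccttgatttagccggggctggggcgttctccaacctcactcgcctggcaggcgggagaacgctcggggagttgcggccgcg
Ndn: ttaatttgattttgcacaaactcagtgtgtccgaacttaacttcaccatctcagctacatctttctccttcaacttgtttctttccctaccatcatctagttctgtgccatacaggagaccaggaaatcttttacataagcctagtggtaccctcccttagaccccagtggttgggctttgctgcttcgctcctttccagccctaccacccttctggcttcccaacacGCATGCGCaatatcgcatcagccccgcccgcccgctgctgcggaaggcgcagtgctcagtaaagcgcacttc
Nnat: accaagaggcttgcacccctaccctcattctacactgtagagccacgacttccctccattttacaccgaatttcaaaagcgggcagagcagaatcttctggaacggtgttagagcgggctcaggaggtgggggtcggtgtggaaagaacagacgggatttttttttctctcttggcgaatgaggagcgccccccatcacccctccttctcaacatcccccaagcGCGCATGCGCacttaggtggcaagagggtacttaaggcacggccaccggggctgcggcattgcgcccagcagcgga

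The Peg3 window, which also holds the start of Usp29, has the PLAGL1-type element at position 50 and the cyclic AMP response element at position 73, counted from 1 at the 5′ end. These motifs stand in 1.08% and 1.79% of all 32851 windows. The Plagl1 window has an E-box at position 69, as 7.15% of windows have an E-box. The NRF1 core stands at position 229 in Ndn and in an overlapping pair at positions 225 and 227 in Nnat, against 2.71% of all windows, so the steady gene and the nearly silent one share it. The Grb10, Mest and Zim1 windows hold none of the 4 motifs. Of 9784 expressed genes with windows, 1.84% held the PLAGL1-type element, 3.48% the cyclic AMP response element, 11.8% the E-box and 5.94% the NRF1 core. A match is a description of letters, not of binding. CpG dinucleotides, the sites of DNA methylation, numbered 45 in the first Grb10 window (chr11:12037371-12037670, minus strand), 26 in Plagl1, 20 in Zim1, 17 in Nnat, 13 in Peg3 and 11 in Ndn. The 3 Mest windows held 17, 17 and 8 and the second Grb10 window 9, against a median of 7 over all windows. Among all windows, these CpG counts ran from percentile 51.4, for the Mest window with 8, to percentile 98.1, for the first Grb10 window. Methylation was not measured.

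Peg3, a zinc finger protein that represses transcription and is used as a marker of fetal and stem cells, spanned the widest range of the expressed members. It lies on chromosome 7, 6703892 to 6730431, minus strand, in GENCODE M21 on GRCm38. Its counts were 7093, 2604, 529 and 25 in tumours 1, 5, 9 and 10, which gave 124, 60.8, 9.85 and 0.743 CPM. Every step was large, with tumour 1 at 12.6-fold the level of tumour 9 and 167-fold that of tumour 10. The SD of log2 CPM was 3.26 over 4 tumours, higher than in 99.4% of expressed genes, and 1.89 without tumour 10.

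The listed neighbours of Peg3 that were matched to a row were also highest in tumour 1, at far lower levels. Zim1, a zinc finger gene whose start lies 33981 bases from that of Peg3 (chromosome 7, 6671269 to 6696450, minus strand), had 22, 3, 0 and 0 counts in tumours 1, 5, 9 and 10. The 22 counts correspond to 0.384 CPM, with an exact 95% interval of 0.241 to 0.582 CPM. The floor of 3 counts is 0.0558 CPM in tumour 9 and 0.0892 CPM in tumour 10. Usp29, a ubiquitin protease gene that starts 147 bases from Peg3 on the other strand, had 54, 17, 1 and 0 counts, and Zim3 had 7, 3, 1 and 0. All 3 had most counts in tumour 1 and none in tumour 10, at levels under 1 CPM. Zim3 had 0.0700 and 0.0186 CPM in tumours 5 and 9, under the tumour 10 floor, so its few counts do not resolve the order of its levels.

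Among the other expressed genes, the one whose centred log2 CPM lay nearest to that of Peg3 was its antisense transcript Peg3os. The root mean square difference over the 4 tumours was 0.11 on the log2 scale. Peg3os had 29.1, 11.9, 2.25 and 0.119 CPM in tumours 1, 5, 9 and 10, the last from 4 counts. In RefSeq on GRCm38.p6 it spans chromosome 7, 6706760 to 6707624, and all of its 865 bases lie within Peg3 exons. No source used here says that counting used strand, so these reads cannot be told apart from those of Peg3. Next in likeness was Camkv, a kinase-like protein of neuronal vesicles, at 0.26 and with 10.5, 4.32, 0.521 and 0.0297 CPM. Grb10 was 13th and Peg10 70th in this order of likeness to Peg3.

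Peg10 and Sgce start 99 bases apart on opposite strands of chromosome 6, and both nearly disappeared from tumour 10. Peg10, a protein derived from a retrotransposon and needed for the placenta, lies at 4747306 to 4760517, plus strand. It had 321, 247, 198 and 2.77 CPM in tumours 1, 5, 9 and 10, from 18378, 10562, 10663 and 93 counts. Tumour 10 stood 71.8-fold below the lowest of the other tumours, which lay within 1.62-fold of each other. Its SD of log2 CPM was 3.25, and 0.35 without tumour 10.

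Sgce, the epsilon subunit of the sarcoglycan complex in the cell membrane (4674350 to 4747207, minus strand), had 16.3, 27.6, 19.1 and 1.07 CPM in tumours 1, 5, 9 and 10, from 934, 1182, 1025 and 36 counts. It was highest in tumour 5, not in tumour 1, and tumour 10 lay 15.2-fold below the lowest of the others. The SD of log2 CPM was 2.13, and 0.38 without tumour 10. Per kilobase of transcript, Peg10 had 5.22, 2.37, 2.76 and 0.685 times the level of Sgce in tumours 1, 5, 9 and 10. The low level in tumour 10 was thus shared by the pair but of unequal size. The genes nearest to Peg10 in pattern were Syde2 at a difference of 0.18 and the predicted gene Gm9926 at 0.20, and those nearest to Sgce were Baiap2l2 at 0.11 and Mb21d2 at 0.21.

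Most genes further out in the Peg10 and Sgce region were higher, not lower, in tumour 10. Of the 7 other expressed genes listed there, 1 was lowest in tumour 10 and 5 were highest in it, against 32.4% and 35.8% of all expressed genes. Casd1, a sialic acid acetyltransferase next to Sgce, had 35.3, 19.6, 31.1 and 18.1 CPM in tumours 1, 5, 9 and 10. Pon1, a lactonase that hepatocytes secrete, had 67.9 CPM in tumour 10 and 26.8, 3.34 and 1.90 CPM in tumours 1, 5 and 9. Pdk4, which blocks entry of pyruvate into the mitochondrial cycle during fasting, had 70.3 CPM in tumour 10 against 7.13 to 19.1 CPM elsewhere.

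Mest, an enzyme of the alpha/beta hydrolase fold that is high in fetal mesoderm and growing fat, varied less. It lies on chromosome 6, 30723547 to 30748465, plus strand. Mest had 15.2, 14.3, 7.58 and 4.82 CPM in tumours 1, 5, 9 and 10, from 872, 614, 407 and 162 counts. The range was 3.16-fold, and the SD of log2 CPM of 0.79 was higher than in 76.1% of expressed genes. Copg2, a coat protein of transport vesicles read from the other strand, overlaps 912 of the 3945 exon bases of Mest (23.1%) and had 44.4, 46.3, 40.9 and 61.0 CPM. Without strand, counts in the shared bases cannot be told apart between these genes. Per kilobase, Mest was at 0.517, 0.467, 0.279 and 0.119 times the level of Copg2 in tumours 1, 5, 9 and 10.

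Plagl1 and Ndn were under 1 CPM in all 4 tumours. Plagl1, a zinc finger factor that stops the cell cycle and is known as a regulator of many imprinted growth genes (chromosome 10, 13060504 to 13131694, plus strand), had 39, 20, 17 and 4 counts in tumours 1, 5, 9 and 10. These gave 0.681, 0.467, 0.316 and 0.119 CPM. The exact 95% interval was 0.485 to 0.932 CPM in tumour 1 and 0.0324 to 0.305 CPM in tumour 10, so these tumours did not overlap, while those of tumours 1, 5 and 9 did. Ndn, a MAGE family protein of neurons that restrains growth (chromosome 7, 62346569 to 62350262, plus strand), had 20, 7, 12 and 0 counts. Its exact 95% interval was 0.213 to 0.540 CPM in tumour 1, above the floor of 0.0892 CPM in tumour 10, and those of tumours 1, 5 and 9 overlapped. The order of the 4 levels of Plagl1 is therefore not resolved by its counts.

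Nnat, a small membrane proteolipid of the endoplasmic reticulum in neurons and secretory cells, was the steady member. It lies on chromosome 2, 157560078 to 157562522, plus strand, inside the span of Blcap on the other strand, with 0 exon bases shared. Nnat had 2.67, 2.90, 3.65 and 3.18 CPM in tumours 1, 5, 9 and 10, from 153, 124, 196 and 107 counts, and its SD of log2 CPM of 0.19 was higher than in only 12.2% of expressed genes. Transcript rows of Nnat differ slightly, and another row had 162, 118, 191 and 94 counts in tumours 1, 5, 9 and 10. The exact 95% intervals of tumours 1, 5 and 10 overlapped, so the lowest tumour of Nnat is not resolved. Blcap, the host of Nnat, had 20.4, 20.2, 22.3 and 27.2 CPM. Of 8 neuronal and neuroendocrine markers, 1 was expressed, Syp, and the list summed to 1.96, 1.77, 1.01 and 3.36 CPM, with Chga at 0, 1, 2 and 1 counts and Elavl4 at 0, 1, 0 and 0.

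Grb10, an adaptor that binds the insulin and IGF1 receptors and dampens their signal, had the highest mean CPM of the members, and the highest CPM in tumours 1 and 5 but not in tumours 9 and 10. It lies on chromosome 11, 11930508 to 12038683, minus strand. It had 481, 391, 92.1 and 11.6 CPM in tumours 1, 5, 9 and 10, from 27537, 16753, 4950 and 390 counts. Tumour 1 stood at 5.22-fold the level of tumour 9 and 41.5-fold that of tumour 10. The SD of log2 CPM was 2.48, higher than in 97.5% of expressed genes, and 1.30 without tumour 10. Its neighbour Ddc, which makes dopamine and serotonin from their amino acid precursors and is imprinted in the heart, had 52.2 to 68.2 CPM. Fignl1, of the same region, had 45.6, 39.9, 37.2 and 19.7 CPM. Nearest to Grb10 in pattern were Hsd3b1, a steroid dehydrogenase, at a difference of 0.28 and Lrrc75a at 0.31.

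The receptors and partners of Grb10 had a spread near that of other genes. All 14 listed genes of insulin and IGF signalling were expressed. Of these, 2 had an SD of log2 CPM of at least 1, against 16.6% of all expressed genes. The median SD was 0.38, against 0.45 over all expressed genes. In tumour 10, 8 of the 14 were lowest, against 32.4% of all expressed genes. Igf2r, which clears IGF2, had 161, 211, 212 and 139 CPM in tumours 1, 5, 9 and 10. Irs1, an adaptor of the insulin receptor, had 29.5, 12.1, 10.3 and 4.82 CPM.

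Cdkn1c, the p57 inhibitor of cyclin-dependent kinases, went its own way. It lies on chromosome 7, 143458339 to 143461050, minus strand, and had 108, 122, 237 and 50.5 CPM in tumours 1, 5, 9 and 10, from 6170, 5223, 12722 and 1700 counts. It was highest in tumour 9, where Grb10 and Peg3 were far below their levels in tumours 1 and 5, and it stayed at the 72.5th percentile of expressed genes per kilobase in tumour 10. The SD of log2 CPM was 0.91, 0.61 without tumour 10 and 1.10 when scaled by total counts alone. In the same imprinted cluster, 2 of the 9 other expressed genes were lowest in tumour 10, against 32.4% of all expressed genes. Phlda2, a growth restrainer of the placenta named after its values were seen, had 27.8, 21.6, 15.7 and 5.05 CPM. Kcnq1ot1, the long RNA that silences the cluster in cis on the paternal copy, had 59.6, 21.8, 49.8 and 21.9 CPM. Osbpl5, a lipid transfer protein, had 32.2 CPM in tumour 10 and 1.86 to 3.42 CPM elsewhere.

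The spread of the members can be read against that of all genes. An SD of log2 CPM of at least 1 was found in 4 of the 7 expressed members, Peg3, Peg10, Grb10 and Sgce, against 16.6% of all expressed genes. Without tumour 10 it was found in 2, Peg3 and Grb10, and the share of all expressed genes was not computed for that setting. Over the 4 tumours the median SD was 2.13, against 0.45. The order 1, 5, 9, 10 from the highest to the lowest tumour was found in 4 of the 7, Peg3, Peg10, Mest and Grb10, against 8.12% of all expressed genes. A Poisson heterogeneity chi-square test, adjusted by Benjamini-Hochberg over all 13129 genes, called 7 of the 7 as varying beyond counting error, near the 98.7% of all genes that it called. With a technical coefficient of variation of 20% added to the model, the same test called 6 of the 7, against 38.8% of all genes, and with one of 5% also 6, against 94.0%. The adjusted p of this test under the 20% model was 5.21e-20 for Peg3, 7.58e-13 for Grb10, 2.86e-07 for Peg10 and 1.28e-06 for Sgce. Under the same 20% model it was 2.93e-05 for Cdkn1c, 0.00303 for Mest and 0.851 for Nnat. Under counting error alone Nnat had an adjusted p of 0.0268, and 0.122 without tumour 1 and 0.521 without tumour 9. The members were picked with earlier results of these data known, so these counts describe them and are no independent evidence.

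**Figure D2:**
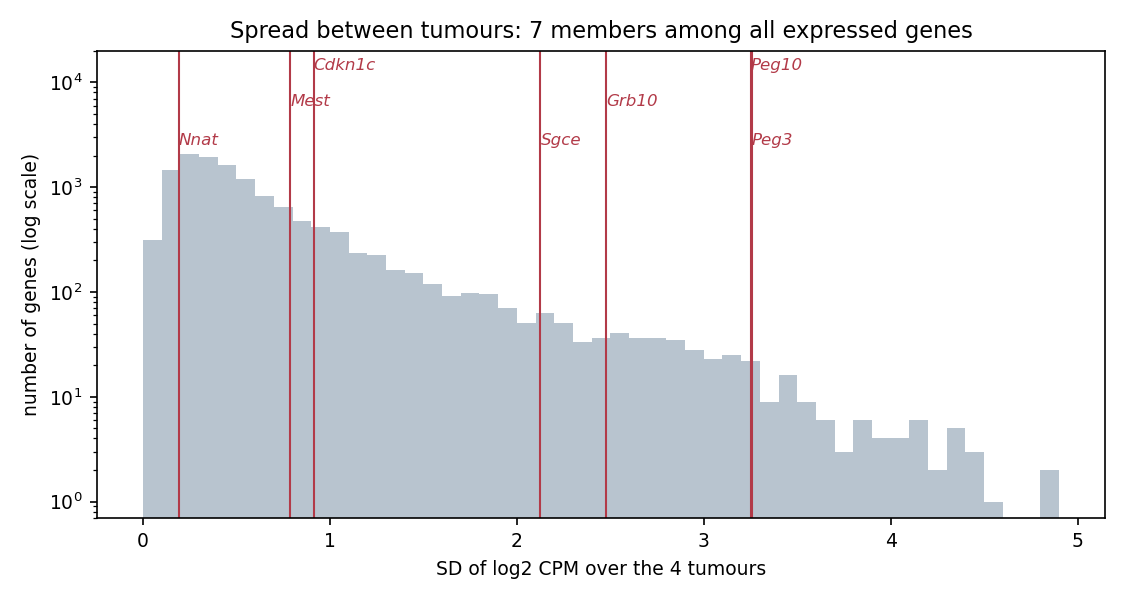
Histogram of the SD of log2 CPM over the 4 tumours for the 13129 expressed genes, with the number of genes on a log axis; red lines mark the 7 expressed members. Nnat (0.19) lies left of the median of 0.45, Mest (0.79) and Cdkn1c (0.91) right of it, and Sgce (2.13), Grb10 (2.48), Peg10 (3.25) and Peg3 (3.26) lie in the right tail.

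Compared per kilobase of transcript, Cdkn1c was the highest member, at 66.6 ± 40.2 CPM per kilobase, before Grb10 at 47.9 ± 44.7 and Peg10 at 28.8 ± 20.4 (SD, n = 4 each). Sgce had 9.06 ± 6.26, Peg3 7.37 ± 8.55, Mest 3.94 ± 1.91 and Nnat 2.47 ± 0.335 CPM per kilobase (SD, n = 4 each). Ndn, Plagl1 and Zim1 had 0.111 ± 0.0879, 0.0753 ± 0.0452 and 0.0325 ± 0.0524. Of the 9 steps of this order, that of Nnat over Ndn exceeded the SD of the difference between the neighbours, with 4.56 ± 1.46 log2 units (SD, n = 4), where the value of Ndn in tumour 10 rests on the prior count. Plagl1 was above Zim1 in 4 of 4 tumours, but the size of that step is set by the prior count, since Zim1 had 0 counts in tumours 9 and 10. The other members next to each other did not differ beyond their spread, and the order changed between tumours, with Grb10 above Cdkn1c in tumours 1 and 5 and far below it in tumours 9 and 10.

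Most genes around the members were not lowest in tumour 10. Of 28 expressed neighbours listed in the 8 imprinted regions, members left out, 6 were lowest in tumour 10 and 14 were highest in it, against 32.4% and 35.8% of all expressed genes. Peg3os, which was lowest in tumour 10, was not among the 28. Snrpn and Snurf, which hold the same counts, were both among them. The median SD of log2 CPM of the 28 neighbours was 0.53. In the Ndn region Ube3a, a ubiquitin ligase imprinted in neurons, had 80.1, 57.1, 72.6 and 35.3 CPM in tumours 1, 5, 9 and 10. Snrpn, a splicing protein of the same region, had 16.9, 11.1, 15.4 and 14.3 CPM and shares its reads with Snurf. Near Plagl1, Sf3b5 had 54.7 to 101 CPM, Ltv1 38.8 to 58.3 and Phactr2 2.53 to 5.71. Near Cdkn1c, Nap1l4 had 102 to 135 CPM and Dhcr7 82.0 to 161. Cep41 near Mest had 1.51 to 8.50 CPM and Cobl near Grb10 5.63 to 23.2 CPM.

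**Figure D3:**
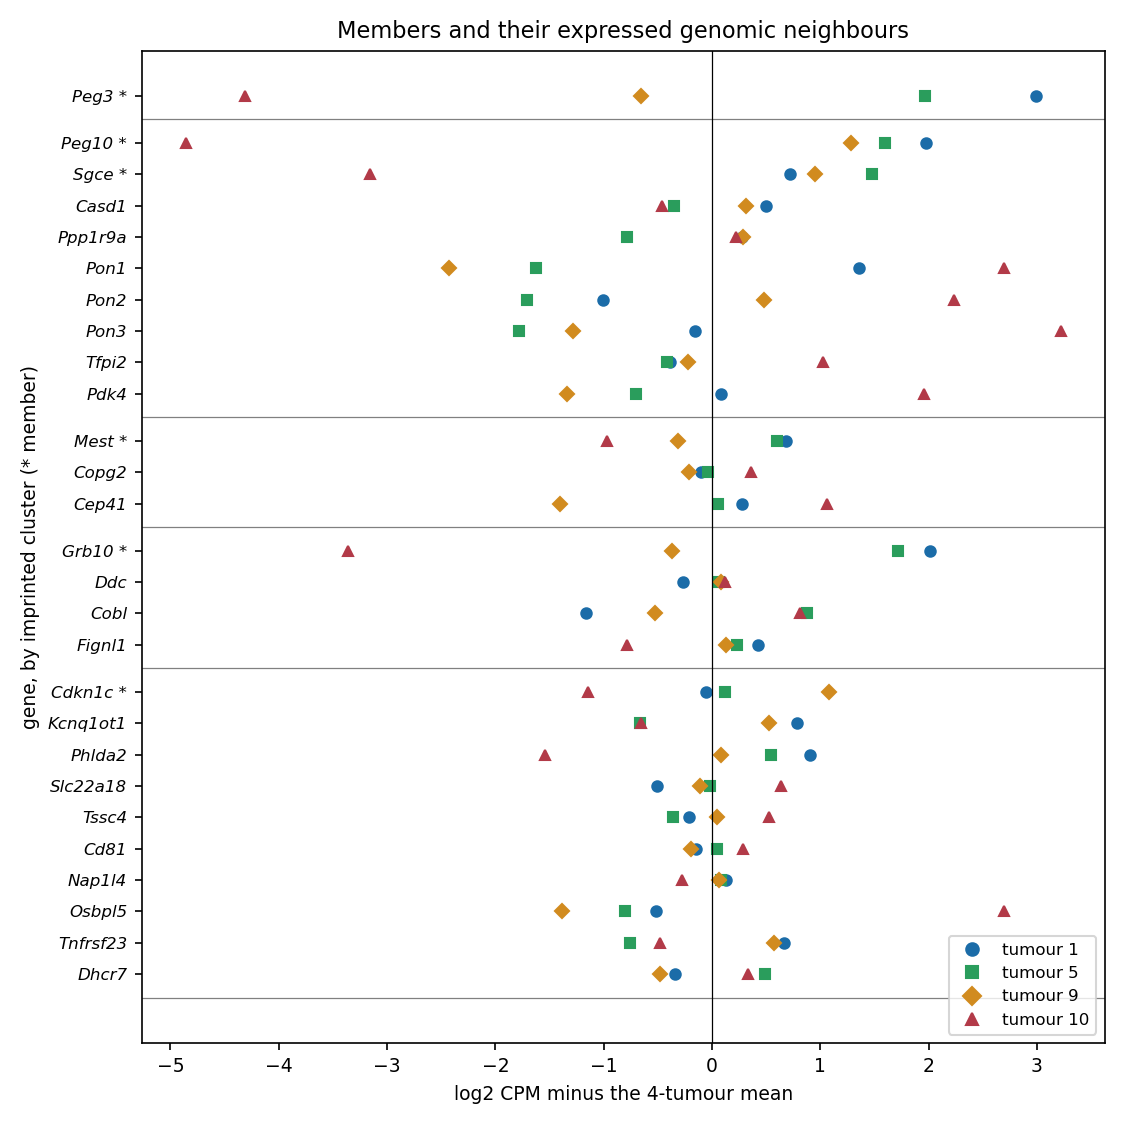
Log2 CPM minus the 4-tumour mean for expressed genes of 5 imprinted regions, 1 point per tumour; members are starred and stand first in their region. In tumour 10 Peg3, Peg10, Sgce and Grb10 lie at -4.31, -4.86, -3.15 and -3.36 log2 units from their means; Pon1 (67.9 CPM) and Osbpl5 (32.2 CPM) are highest there.

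The wider imprinted network did not move as 1 block. A list known from mouse work on Plagl1 holds 9 genes beside the members, all expressed, of which 4 were lowest and 4 highest in tumour 10, against 32.4% and 35.8% of all expressed genes. Dlk1, a fetal surface protein, had 825, 1310, 149 and 2.41 CPM in tumours 1, 5, 9 and 10. Meg3, Rian and Mirg of the same Dlk1-Dio3 imprinted locus were also far lower in tumour 10, with 2.35, 1.10 and 0.0595 CPM. Their lowest levels elsewhere were 119, 108 and 4.84 CPM, in tumour 9. H19 and Igf2 were highest in tumour 10, where they had 38041 and 9667 CPM, while the other tumours reached 28059.5 and 5889.5 CPM. Slc38a4, a liver amino acid transporter that is imprinted in the placenta, had 1158 CPM in tumour 10 and 275 to 281 CPM elsewhere. Gatm, of creatine synthesis, had 82.7, 35.6, 9.79 and 11.2 CPM, and the matrix protein Dcn 30.4, 13.8, 61.2 and 6.33 CPM.

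Markers of other cell types also differed between these tumours. The 12 stellate cell and fibroblast markers summed to 432, 302, 536 and 119 CPM in tumours 1, 5, 9 and 10, with none at 0 and 11 of 12 lowest in tumour 10. The 7 fetal hepatocyte markers summed to 2995, 5274, 5236 and 284 CPM, with Lin28b at 0 in tumour 9 and Hmga2 at 0 in tumour 10, and 3 of the 6 expressed ones were lowest in tumour 10. Of the 10 hepatocyte markers, 7 were highest in tumour 10. Over all expressed genes, 32.4% were lowest and 35.8% highest in tumour 10, and 21.6% were highest in tumour 9. Tumour 9, where Cdkn1c was highest, held most neutrophil and erythroid RNA, with marker sums of 505 and 520 CPM against 10.9 to 22.4 and 64.3 to 102 CPM in the other tumours. The 6 cholangiocyte markers summed to 51.2, 79.4, 15.5 and 13.9 CPM in tumours 1, 5, 9 and 10, with none at 0 and 4 of the 5 expressed ones lowest in tumour 10. Macrophage markers summed to 187, 144, 516 and 301 CPM and endothelial markers to 92.5, 96.0, 148 and 102 CPM, and in each list 6 of 8 expressed genes were highest in tumour 9. Dlk1 stands in the fetal hepatocyte list and Dcn in the fibroblast list, and both are imprinted genes themselves. The part of these cell types in the levels of the imprinted genes was not tested.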

How the data were processed

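Libraries were TruSeq libraries of poly-A RNA, as the labels' protocols state. The submitters' processing notes name FastQC 0.11.8 and the build GRCm38. An aligner, a counting program and a strand setting were not given in the sources used here. The authors' deposited counts are whole reads per RefSeq transcript row (33984 rows). The deposited FPKM column was used only to recover transcript lengths, and the deposited TPM column, which sums to 1000000, only to check the unit. Reads were counted on several isoforms, with row totals 1.434 to 1.487 times the gene totals, so each gene is its row with the highest mean count. Scaling used TMM (edgeR 4.0.16, R 4.3.3), with DESeq2 1.42.0 size factors as an alternative. With total counts alone, the median of all genes would move by 0.14, 0.04, 0.14 and -0.32 on the log2 scale in tumours 1, 5, 9 and 10. The prior count added before taking log2 was 2. With 1 group there was no contrast to fit, so the only test was a Poisson heterogeneity chi-square test, adjusted by Benjamini-Hochberg with a threshold of 0.05. Its p-values measure spread between these samples only. On simulated counts for 13129 genes it called 95% of 100 genes lowered 2-fold, 100% of 100 lowered 4-fold and 0.09% of unchanged genes. The simulated counts held counting error only. The 0.09% therefore does not carry over to these tumours, where the test called 98.7% of expressed genes. The models with a technical coefficient of variation were not simulated. Intervals are exact binomial (Clopper-Pearson, 95%) and cover counting error only. Likeness of patterns was the root mean square difference of centred log2 CPM. Named are the members, the 2 nearest genes of each expressed member with an SD of at least 1, and of each list the 2 other genes with the highest mean and the 1 with the largest SD. Members, lists and motifs were chosen with earlier results or the promoters of these genes known. Phlda2, Kcnq1ot1, Slc38a4, Gatm, Dcn, Meg3, Rian and Mirg were named after their values were seen. Of 266 list entries, 3 were not matched to a row, Zim2, Zfp264 and Apeg3 of the Peg3 region. The antisense transcript of Peg3 does have a row, under the symbol Peg3os, and was not counted among the listed neighbours. Gene positions come from GENCODE M21 (GRCm38).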

Additional observations from a re-analysis of the deposited data

Results flagged for a closer look

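In Peg10 and in Sgce, tumour 10 stood far from the other 3 tumours. The gap to the nearest tumour took a share of 0.898 of the whole range of log2 CPM for Peg10 and 0.837 for Sgce, above Dixon's 95% critical value for 4 samples. Peg10 had 2.77 CPM in tumour 10 against 198 to 321 CPM elsewhere, and Sgce 1.07 CPM against 16.3 to 27.6 CPM. All 10 members were examined, and chance alone flags about 1 gene in 20. Both values come from the same library, and the genes start 99 bases apart, so they are not separate observations. The cause was not tested.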

How the results depend on the processing

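Under DESeq2 size factors, total counts, the sum over transcript rows and a prior count of 0.5, the number of expressed members with an SD of log2 CPM of at least 1 was 4, 5, 4 and 4. Without a filter it was 6 of 10. Leaving out 1 tumour gave 2 to 5. The 2 were Peg3 and Grb10, without tumour 10, where the SD of Peg10 was 0.35 and that of Sgce 0.38. Shares of all expressed genes were not computed with a tumour left out. The 6 members lowest in tumour 10 and the 4 at least 4-fold lower there stayed 6 and 4 in number without tumour 1, 5 or 9. Leaving out 1 tumour gave 6 to 7 members beyond counting error, 4 highest in tumour 1, 1 to 5 highest in tumour 5, 2 to 3 in tumour 9 and 0 to 1 in tumour 10. It gave 1 to 3 lowest in tumour 1, 0 to 1 in tumour 5 and 0 to 4 in tumour 9. Without a filter 7 of 10 members were highest in tumour 1. Scaled by total counts, 0 were lowest in tumour 1, since Nnat was then lowest in tumour 10. Summed over transcript rows, the mean log2 CPM was 4.26 for Mest, 3.33 for Nnat and 5.06 for Sgce, against 3.25, 1.64 and 3.31, because several rows hold the same reads. No paired analysis was possible because there is 1 group and no replicate number is shared. Depth limits Zim1, Ndn and Plagl1, whose values in tumour 10 rest on 0, 0 and 4 counts.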

Other observations

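Sfmbt2, a Polycomb group gene that is imprinted in the placenta, had 68.1 CPM in tumour 9, from 3659 counts, and 0.122, 0.0467 and 1.04 CPM in tumours 1, 5 and 10, the largest SD of the 24 expressed genes in the list of other imprinted genes. Of these 24 genes, 13 were lowest and 8 highest in tumour 10, against 32.4% and 35.8% of all expressed genes. The 13 include Dlk1, Meg3, Rtl1, Rian and Mirg, which share the Dlk1-Dio3 locus and are not separate observations. Rtl1, like Peg10 a gene derived from a retrotransposon and imprinted, had 4.23, 7.0, 3.39 and 0.0595 CPM in tumours 1, 5, 9 and 10, the last from 2 counts. Rgag4, of the same origin and on the X chromosome, had 1.26, 1.52, 2.70 and 0.833 CPM.

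Relatives of the members by protein family had a spread like that of all expressed genes, of which 16.6% had an SD of log2 CPM of at least 1 and whose median SD was 0.45. The median SD was 0.45 for the MAGE genes, 0.44 for the dystrophin complex and 0.44 for the cell cycle genes, members left out. Of 5 expressed MAGE genes beside Ndn, none had an SD of log2 CPM of at least 1; Maged1 had 127 to 171 CPM, Ndnl2 7.68 to 15.2 and Magee1 1.05 to 3.09. Of 8 expressed genes of the dystrophin complex beside Sgce, 1 did so, Sspn, with 15.3, 8.62, 3.16 and 0.505 CPM in tumours 1, 5, 9 and 10, while Dag1 had 115 to 137 CPM and Utrn 38.1 to 76.3. Of 8 expressed cell cycle inhibitors, cyclins and kinases beside Cdkn1c, 1 did so: Ccnd1 had 14.9, 72.0, 4.0 and 109.7 CPM. Cdkn1a had 78.0 to 196 CPM and Cdk4 160 to 322. All 6 expressed regulators of imprints were lowest in tumour 10, as were 32.4% of all expressed genes, though Dnmt1 was level between tumours 9 and 10. Among them were Trim28 with 485, 439, 289 and 218 CPM, Dnmt1 with 171, 168, 104 and 104 and Uhrf1 with 139, 154, 90.8 and 56.3 in tumours 1, 5, 9 and 10, none with an SD of at least 1.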
